A study of Mus musculus with 6 samples.

Results

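The matrix metalloproteases (Mmp), the ADAMTS proteases (Adamts, metalloproteases with thrombospondin motifs) and the tissue inhibitors of metalloproteases (Timp) were examined in hearts of adrenalectomized and sham-operated mice. The members are all noncontrol probes of the array whose gene name is Mmp, Adamts or Timp followed by a digit. They are 73 probes for 42 genes, of 41174 noncontrol probes for 27962 gene names. The Mmp class held 28 probes for 21 genes, the Adamts class 39 probes for 17 genes, and the Timp class 6 probes for 4 genes.

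Adrenalectomy removes the glands that make most of the corticosterone and aldosterone of a mouse. The tested hearts came from 3 male wild-type C57BL/6 mice adrenalectomized at 1 month of age (ADX), the others from 3 male C57BL/6 mice that had a sham operation, and in both groups hearts were taken 6 months after surgery. Another label calls the animals 6 months old, so the age at collection differs between labels by about 1 month. RNA was from whole heart, with a 1-colour Agilent array for each mouse, and the 3 mice of a group are biological replicates by the submitters' design text. The labels give neither hormone levels nor any hormone or salt replacement.

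Matrix metalloproteases are secreted or membrane-bound enzymes with a zinc ion at the active site, made as inactive precursors, that cut collagens, elastin, laminin and many signalling proteins. ADAMTS enzymes are secreted and bind the matrix through thrombospondin repeats. Their main known substrates are the large proteoglycans versican and aggrecan, the ends of procollagens, and von Willebrand factor. TIMP proteins bind the active site of these enzymes and block it, and in heart the balance of proteases and inhibitors is known for its part in remodelling of the collagen network.

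No member passed the test between ADX and sham hearts. The lowest adjusted p belonged to Adamts1, a secreted protease of versican and aggrecan, whose signal was 2.04-fold lower in ADX hearts with no overlap between the groups (limma adjusted p = 0.136). The second Adamts1 probe, Mmp24, Mmp23 and both Adamts7 probes also had an unadjusted p under 0.05, all lower in ADX hearts, and each missed the adjusted threshold. Timp1, Timp2, Mmp2, Mmp9 and Mmp14, members often measured in heart remodelling, had overlapping groups. Timp3 and 1 probe each of Adamts2 and Mmp17 had groups without overlap, lower in ADX hearts, at an unadjusted p above 0.05.

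The probes that these results turn on are 60 bases long, and their sequences are shown because each value is the signal of 1 probe and not of a whole transcript. Capitals mark the longest run of bases that the probe shares, on either strand, with a probe of another member gene. Coordinates come from the design of the array on the mm7 assembly (1-based), and the sequences are written 5′ to 3′ as the array files give them. Where the probes lie relative to exons and untranslated regions of mm7 was not analysed here.
Adamts1, A_52_P489295, chr16:85790724-85790783, minus strand: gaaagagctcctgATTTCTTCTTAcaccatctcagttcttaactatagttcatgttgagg
Adamts1, A_52_P213932, chr16:85791871-85791930, minus strand: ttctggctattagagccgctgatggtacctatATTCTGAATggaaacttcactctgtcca
Adamts7, A_51_P487244, chr9:89828591-89828650, plus strand: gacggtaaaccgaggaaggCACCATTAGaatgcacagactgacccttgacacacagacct
Adamts7, A_52_P344036, chr9:89828765-89828824, plus strand: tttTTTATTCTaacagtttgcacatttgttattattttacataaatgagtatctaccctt
Adamts8, A_51_P110830, chr9:30862193-30862252, plus strand: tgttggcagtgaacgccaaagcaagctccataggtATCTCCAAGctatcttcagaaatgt
Adamts8, A_52_P509020, chr9:30862134-30862193, plus strand: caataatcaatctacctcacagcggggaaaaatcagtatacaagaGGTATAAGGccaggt
Mmp24, A_52_P605500, chr2:155558643-155558702, plus strand: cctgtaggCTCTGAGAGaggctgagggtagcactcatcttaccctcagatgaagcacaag
Mmp23, A_51_P502132, chr4:154640810-154640869, minus strand: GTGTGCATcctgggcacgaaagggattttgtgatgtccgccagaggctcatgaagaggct
Timp3, A_51_P463765, chr10:85907162-85907221, plus strand: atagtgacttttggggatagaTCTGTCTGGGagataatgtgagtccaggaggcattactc
Over all 73 member probes, no probe shared a run longer than 11 bases with a probe of another member gene. The GC content of the members ran from 23.3% to 55.0%, with a median of 43.3%. The lowest is that of the Adamts7 probe A_52_P344036 above, and the Mmp23 probe is among those at the highest.

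Values are log2 of the processed spot signal minus the array's 75th percentile, so 0 is the signal that 75% of spots stay under, and levels are compared only between hearts for the same probe. Testing required that the scanner software flag a probe as well above background in every heart of either group. This held for 43 members (58.9%), against 58.3% of all probes. The 43 tested members belong to 29 genes, and 39 of them were well above background on all 6 arrays. The lowest correlation between any pair of arrays across probes was 0.9804. On ADX arrays 60.5% to 66.8% of spots were well above background, against 57.7% to 60.2% on sham arrays. ADX replicate 1 and all sham arrays lay on slide 1, whereas ADX replicates 2 and 3 lay on slide 2, so a comparison within a slide sets 1 ADX heart against 3 sham hearts.

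Of the 43 tested members, 0 were called at an adjusted p under 0.05 in limma, with Benjamini-Hochberg adjustment over all 23989 tested probes. Of all tested probes 0.00417% were called, which is 1 probe. At an unadjusted p under 0.05, 6 members were lower and 0 higher in ADX hearts, where 7.4% of all tested probes were lower and 6.1% higher. The 3 ADX values lay entirely below the 3 sham values for 8 members and entirely above them for 0, against 9.4% and 10.2% of all tested probes. The difference was below 0 for 32 of 43 tested members (74.4%), against 44.9% of all tested probes. The median difference was -0.09 for the members and 0.03 for all tested probes. Among probes well above background on all 6 arrays, 30 of 39 members (76.9%) were below 0, against 46.3% of all such probes. In the same fit, 5 of these 39 were lower at an unadjusted p under 0.05, against 1682 of 22156 such probes. None of the 39 was higher, against 1128 of all such probes. The Mmp24 probe, among the 6 and the 8 counted above, entered the test only through sham hearts, where it was higher. By class, 11 of 14 tested Mmp probes, 17 of 23 Adamts probes and 4 of 6 Timp probes were below 0. Genes with several probes count several times here, and a gene's probes share 1 transcript pool.

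Background correction decides how many members are called. With normexp correction on the local background, 24 members were called, but so were 40.4% of all tested probes, and the median over all tested probes moved to -0.18. With limma's array weights 1 member was called, the Adamts1 probe A_52_P489295, against 0.696% of all tested probes. Leaving out 1 array at a time gave 2 to 4 members lower at an unadjusted p under 0.05, with 2 when sham replicate 2 was left out and 3 when ADX replicate 2 or 3 was. The count over all tested probes, in either direction, moved too. It was 3238 of 23989 with all arrays and 2223 of 24276 without sham replicate 2. It was 2564 of 24063 without ADX replicate 2 and 3642 of 24451 without ADX replicate 3.

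**Figure D1:**
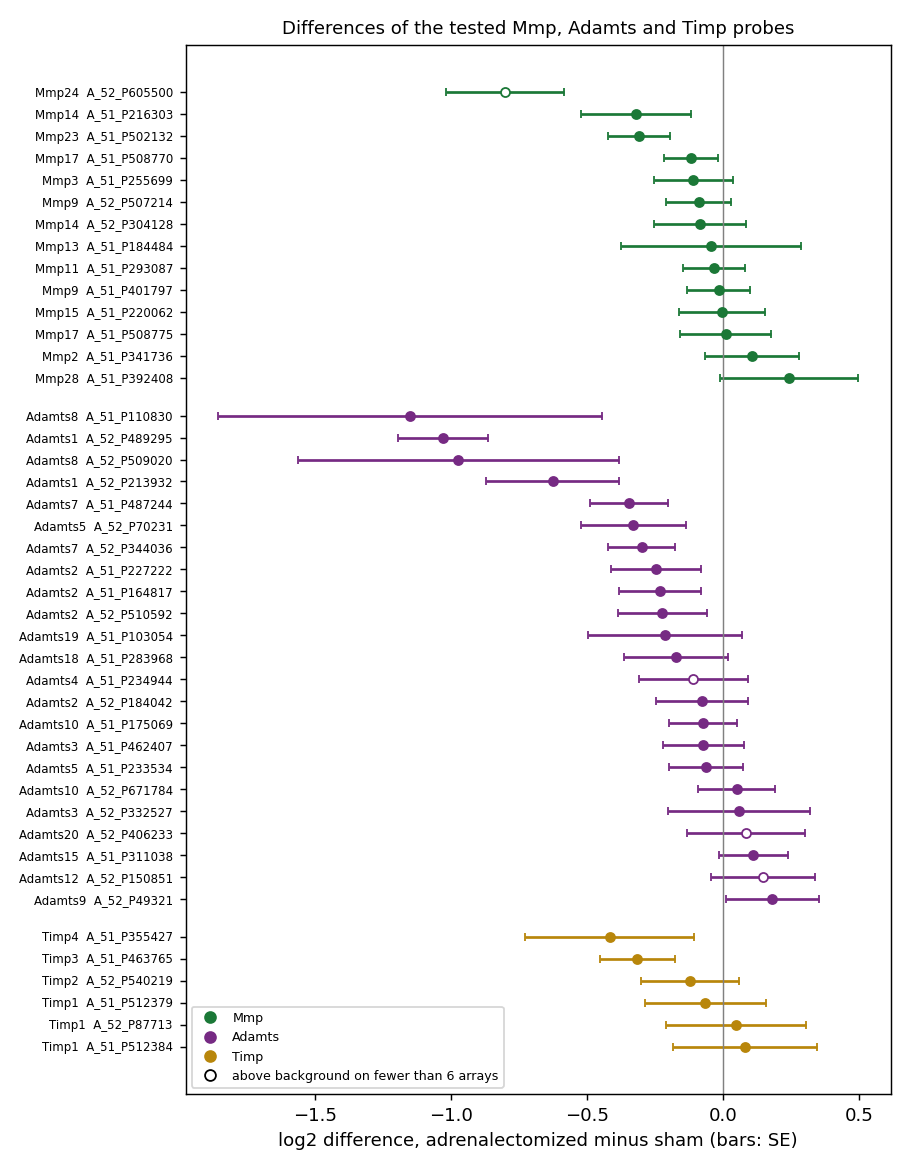
Log2 difference of each of the 43 tested probes, ADX minus sham (x axis), grouped by class and sorted, with bars of 1 SE from limma. Most points lie left of 0, and the Adamts1, Adamts8 and Mmp24 probes lie farthest left, with the widest bars on Adamts8. Open points were well above background on fewer than 6 arrays.

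The proteoglycan-cleaving Adamts enzymes include Adamts1, Adamts4, Adamts5, Adamts8, Adamts9, Adamts15 and Adamts20. The Adamts1 probe A_52_P489295 read 0.16, 0.49 and 0.38 in ADX hearts, against 1.36, 1.65 and 1.12 in sham hearts. Every ADX heart was below every sham heart, and the gap between the groups was wider than the range within either. The means were 0.35 ± 0.17 in ADX and 1.38 ± 0.26 in sham hearts (SD, n = 3 each), a difference of -1.03 (SE 0.17, limma adjusted p = 0.136). By p it ranked 69 of 23989 tested probes. Over 22 other settings the difference stayed between -1.21 and -0.77, and the adjusted p ran from 0.0212 with normexp to 0.471 with no filter on dim probes. Within slide 1 it was -1.21 (adjusted p = 0.232).

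The second Adamts1 probe, A_52_P213932, lies 5′ of the first on the gene's strand. It read -3.37, -2.66 and -3.66 in ADX hearts, against -2.72, -2.59 and -2.50 in sham hearts. ADX replicate 2 lay among the sham values and the other ADX hearts below them. The difference was -0.63 (SE 0.25, limma adjusted p = 0.34), and it was -0.91 without ADX replicate 2 and -0.41 without ADX replicate 3. Within slide 1 it was -0.77. Both Adamts1 probes thus were lower in ADX hearts, with non-overlapping groups on 1 of them.

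Adamts8, another secreted proteoglycan protease, had the most negative fitted difference of all members, but with the widest error. Its probe A_51_P110830 read -1.83, -1.41 and -1.62 in ADX hearts, against -0.997, 1.34 and -1.73 in sham hearts. Its probe A_52_P509020 read -2.55, -2.26 and -2.52 in ADX hearts, against -1.96, 0.04 and -2.49 in sham hearts. On both probes sham replicate 2 stood far above the other 5 hearts and sham replicate 3 lay within the ADX range. Sham replicate 2 was also the highest heart for the smooth muscle markers Acta2, Cnn1, Myh11 and Tagln, but not for Smtn, Des or Rgs5. Cnn1 and Acta2 were chosen for naming after their values were seen. Calponin (Cnn1) read 1.24, 1.97 and 1.46 in ADX hearts, against 1.67, 3.81 and 1.40 in sham hearts, and Acta2 read 4.89, 4.90 and 5.58 in ADX hearts, against 4.73, 6.18 and 4.58 in sham hearts. The part of smooth muscle in the Adamts8 signal was not tested. The Adamts8 differences were -1.15 (SE 0.71, limma adjusted p = 0.519) and -0.97 (SE 0.59, adjusted p = 0.512). Without sham replicate 2 they were -0.25 and -0.22. The probes abut on the genome, sharing 1 base, and so are close to a repeat reading of 1 site. A further Adamts8 probe, annotated on the opposite strand of the design, was above background on no array. Sham replicate 2 was also the only heart in which the Adamts16 probe A_52_P452660 was well above background, at -1.20 against -6.80 to -5.76 in ADX hearts and -5.76 and -5.73 in the other sham hearts.

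Adamts5, the main aggrecan-cleaving enzyme of mouse cartilage, has its probes 63.0 kb from those of Adamts1 on chromosome 16. Its probe A_52_P70231 read -2.89, -3.32 and -3.00 in ADX hearts, against -2.39, -3.02 and -2.81 in sham hearts. The groups overlapped through sham replicate 2, and the difference was -0.33 (SE 0.19, limma adjusted p = 0.498), or -0.16 without sham replicate 1 and -0.21 without ADX replicate 2. The other Adamts5 probe differed by -0.06 (SE 0.14). Adamts15, 40.4 kb from Adamts8 on chromosome 9, differed by 0.11 (SE 0.13), and Adamts9 by 0.18 (SE 0.17). Adamts4 was above background in 3 ADX hearts and 2 sham hearts and differed by -0.11 (SE 0.20). Adamts20 was above background in 3 ADX and 2 sham hearts and differed by 0.08 (SE 0.22). Whether neighbouring genes differed alike was not tested. None of Adamts4, Adamts5, Adamts9, Adamts15 or Adamts20 had separate groups.

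Adamts7 and Adamts12 form the branch known to cut cartilage oligomeric matrix protein, and Adamts7 is known from vascular smooth muscle. The Adamts7 probe A_51_P487244 read 1.01, 0.57 and 0.69 in ADX hearts, against 1.06, 1.04 and 1.20 in sham hearts. Its probe A_52_P344036 read -1.18, -1.49 and -1.23 in ADX hearts, against -0.98, -1.08 and -0.94 in sham hearts. On both probes every ADX heart was below every sham heart, with ADX replicate 1 nearest to the sham values and ADX replicate 2 farthest. The differences were -0.35 (SE 0.14, limma adjusted p = 0.36) and -0.30 (SE 0.12, adjusted p = 0.359). Within slide 1, where ADX replicate 1 is the only ADX heart, they were -0.09 and -0.18. The part of the slide in the Adamts7 difference was not tested beyond that. Adamts12 had 1 of 3 probes tested, with a difference of 0.15 (SE 0.19).

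Adamts2 and Adamts3 remove the amino-terminal propeptide of fibrillar procollagens. The Adamts2 probe A_51_P227222 read 2.74, 2.71 and 2.76 in ADX hearts, against 2.78, 3.34 and 2.83 in sham hearts. The groups did not overlap, but only sham replicate 2 stood clearly above the ADX hearts, and the difference was -0.25 (SE 0.17, limma adjusted p = 0.55). The other 3 Adamts2 probes overlapped, with differences of -0.23, -0.22 and -0.08. The Adamts3 probe A_51_P462407 read -2.61, -3.10 and -2.88 in ADX hearts, against -2.82, -2.68 and -2.87 in sham hearts. The Adamts3 probe A_52_P332527 read -3.97, -3.40 and -3.74 in ADX hearts, against -3.49, -3.48 and -4.32 in sham hearts. These Adamts3 probes differed by -0.07 (SE 0.15) and 0.06 (SE 0.26), opposite in sign and both with overlapping groups.

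Adamts10, linked in human and mouse to fibrillin microfibrils, also had probes of opposite sign. Its probe A_51_P175069 read -1.71, -1.86 and -1.52 in ADX hearts, against -1.62, -1.71 and -1.54 in sham hearts, a difference of -0.07 (SE 0.13). Its probe A_52_P671784 read -3.05, -2.87 and -2.91 in ADX hearts, against -3.03, -3.19 and -2.75 in sham hearts, a difference of 0.05 (SE 0.14). The groups overlapped on both. Adamts18 differed by -0.17 (SE 0.19) and Adamts19 by -0.21 (SE 0.28), each on 1 tested probe. Adamts13, the protease of von Willebrand factor, was above background on no array. Adamts6 was above background only in ADX replicate 2, and neither it nor Adamts16 was tested.

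**Figure D2:**
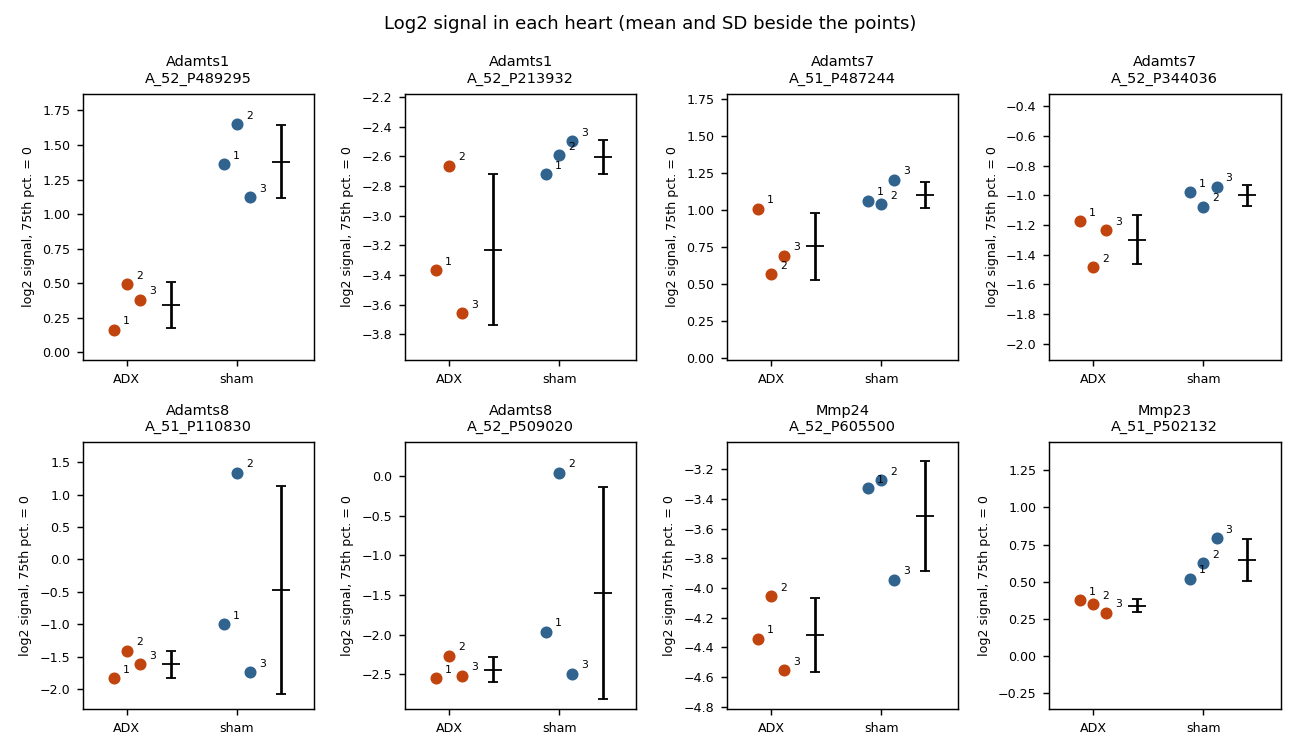
Log2 signal relative to the array's 75th percentile (y axis) in each ADX heart and each sham heart, numbered by replicate, for 8 probes of Adamts1, Adamts7, Adamts8, Mmp24 and Mmp23, with mean and SD beside the points. Axes differ in range between panels. ADX and sham points are apart for the upper left Adamts1 panel, both Adamts7 panels, Mmp24 and Mmp23, and sham replicate 2 stands alone on both Adamts8 panels.

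Among membrane-anchored Mmp members, Mmp24 (MT5-MMP), a transmembrane enzyme known mainly from the nervous system, had the lowest p. Its probe A_52_P605500 read -4.34, -4.05 and -4.55 in ADX hearts, against -3.33, -3.27 and -3.94 in sham hearts. All ADX hearts were below all sham hearts, and the signal was well above background in 2 of 3 ADX hearts and 3 of 3 sham hearts. The means were -4.32 ± 0.25 in ADX and -3.51 ± 0.37 in sham hearts (SD, n = 3 each), a difference of -0.80 (SE 0.22, limma adjusted p = 0.219). Within slide 1 it was -0.83, and leaving out 1 array at a time it ran from -1.02 to -0.68. Another Mmp24 probe was above background on no array. These dim signals lie near the lowest values that the scanner software called above background, -4.88 to -4.48 on ADX arrays and -4.71 to -4.15 on sham arrays.

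Mmp23, a membrane-anchored member that carries an immunoglobulin-like domain where most others have a hemopexin domain, read 0.37, 0.35 and 0.29 in ADX hearts, against 0.52, 0.62 and 0.79 in sham hearts. The groups did not overlap. The means were 0.34 ± 0.04 in ADX and 0.65 ± 0.14 in sham hearts (SD, n = 3 each), a difference of -0.31 (SE 0.11, limma adjusted p = 0.317). Within slide 1 it was -0.27, and without 1 array at a time it ran from -0.37 to -0.23.

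Mmp14 (MT1-MMP), the membrane enzyme that activates the Mmp2 precursor together with Timp2, had its probe A_51_P216303 at 1.28, 1.49 and 2.07 in ADX hearts, against 1.95, 2.00 and 1.86 in sham hearts. ADX replicates 1 and 2 were below all sham hearts and ADX replicate 3 above them. The difference was -0.32 (SE 0.20, limma adjusted p = 0.528), and it was -0.55 without ADX replicate 3 and -0.16 without ADX replicate 1. The other Mmp14 probe differed by -0.09 (SE 0.17). Mmp15, a close relative of Mmp14, averaged 1.99 ± 0.29 in ADX and 1.99 ± 0.02 in sham hearts (SD, n = 3 each, limma adjusted p = 0.995).

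Mmp17, a member anchored to the membrane by a lipid, had probes of opposite sign. Its probe A_51_P508770 read -0.75, -0.83 and -0.82 in ADX hearts, against -0.71, -0.62 and -0.72 in sham hearts. The groups did not overlap, though ADX replicate 1 lay close to the sham values, and the difference was -0.12 (SE 0.10, limma adjusted p = 0.639). Its probe A_51_P508775 read -2.24, -2.45 and -1.99 in ADX hearts, against -2.42, -1.98 and -2.30 in sham hearts, with full overlap and a difference of 0.01 (SE 0.17). Mmp16 and Mmp25, also membrane-anchored, were not tested. The Mmp16 probe A_52_P975 read -4.26, -4.95 and -4.22 in ADX hearts, against -2.53, -4.00 and -4.47 in sham hearts, with sham replicate 1 highest.

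Of the gelatinases, which digest denatured collagen, Mmp2 read 2.06, 1.61 and 1.99 in ADX hearts, against 1.59, 1.73 and 2.03 in sham hearts. The groups overlapped fully and the difference was 0.11 (SE 0.17, limma adjusted p = 0.824). The Mmp9 probe with 10 spots per array differed by -0.09 and the other Mmp9 probe by -0.02 (SE 0.12 each). For Mmp2 and both Mmp9 probes the difference was within 1 SE of 0.

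A group of 8 Mmp genes lies side by side on chromosome 9, and their 9 probes span chr9:7280046-7695493 (mm7, 415.4 kb). Only 2 of these genes were tested, Mmp3 and Mmp13, and 5 of the 9 probes were above background on no array. Mmp3 (stromelysin), which cuts proteoglycans and activates other Mmp precursors, read 0.52, 0.27 and 0.16 in ADX hearts, against 0.41, 0.26 and 0.60 in sham hearts. The groups overlapped, with a difference of -0.11 (SE 0.15, limma adjusted p = 0.779). Mmp13, the main collagenase of rodents, differed by -0.04 (SE 0.33, adjusted p = 0.967), with sham values spread from -3.16 to -1.80. Mmp7 (matrilysin) was above background only in ADX replicate 1 and Mmp8, the collagenase of neutrophils, only in ADX replicate 2. Mmp1a, Mmp10, Mmp12 and Mmp20 were above background on no array.

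Of the remaining Mmp members, Mmp28 (epilysin) read -3.73, -3.49 and -3.55 in ADX hearts, against -3.66, -3.41 and -4.43 in sham hearts. ADX values lay between sham replicate 2 and sham replicate 3, and the difference was 0.24 (SE 0.25, limma adjusted p = 0.71). Mmp11, another stromelysin, differed by -0.03 (SE 0.12). Mmp19 was above background only in ADX replicate 2, and Mmp21 on no array. No member was detected in every heart of 1 group and in none of the other.

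All 4 inhibitors were measured on every array. Timp3, the inhibitor that binds the matrix and also blocks several ADAM and ADAMTS enzymes, read 3.80, 3.89 and 3.77 in ADX hearts, against 3.98, 4.39 and 4.04 in sham hearts. Every ADX heart was below every sham heart, and sham replicate 2 was highest. The means were 3.82 ± 0.06 in ADX and 4.14 ± 0.22 in sham hearts (SD, n = 3 each), a difference of -0.32 (SE 0.14, limma adjusted p = 0.382). It was -0.19 without sham replicate 2, -0.33 within slide 1 and 0.02 with normexp correction.

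Timp4, an inhibitor known for high expression in heart, read 1.69, 1.58 and 0.46 in ADX hearts, against 1.73, 1.63 and 1.62 in sham hearts. ADX replicate 3 stood alone below the other 5 hearts. The difference was -0.42 (SE 0.31, limma adjusted p = 0.594), and it was -0.02 without ADX replicate 3 and 0.03 within slide 1. Timp2 read 4.37, 4.29 and 4.67 in ADX hearts, against 4.44, 4.90 and 4.37 in sham hearts, with overlap and a difference of -0.12 (SE 0.18, adjusted p = 0.801).

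Timp1, the inducible inhibitor, had 3 probes, all with overlapping groups. The probe A_52_P87713 read 0.99, 1.06 and 0.24 in ADX hearts, against 0.45, 1.06 and 0.63 in sham hearts. The probe A_51_P512384 read -1.62, -1.97 and -2.70 in ADX hearts, against -2.34, -2.11 and -2.08 in sham hearts. The probe A_51_P512379 read -2.65, -2.46 and -3.23 in ADX hearts, against -2.99, -2.55 and -2.60 in sham hearts. ADX replicate 3 was the lowest heart on each Timp1 probe, as it was for Timp4. The differences were 0.05 (SE 0.26), 0.08 (SE 0.27) and -0.07 (SE 0.22), with limma adjusted p-values of 0.954, 0.922 and 0.923.

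**Figure D3:**
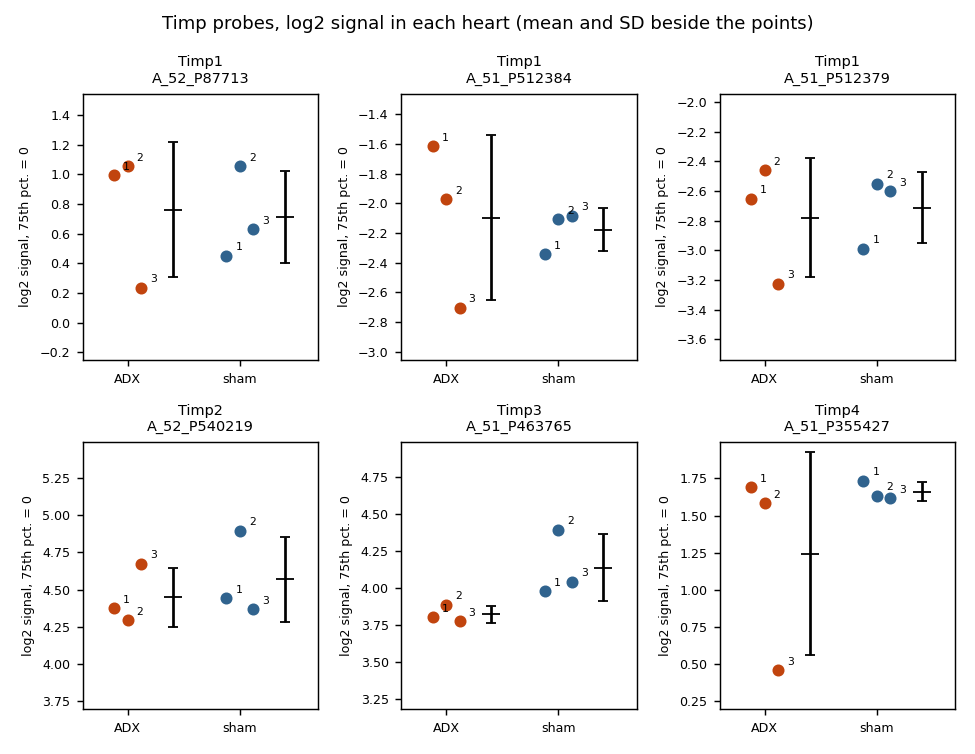
Log2 signal relative to the array's 75th percentile (y axis) of the 6 Timp probes in each ADX heart and each sham heart, numbered by replicate, with mean and SD beside the points. Timp3 is the panel where ADX and sham points do not overlap, and ADX replicate 3 is lowest on Timp4 and on all 3 Timp1 probes.

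**Figure D4:**
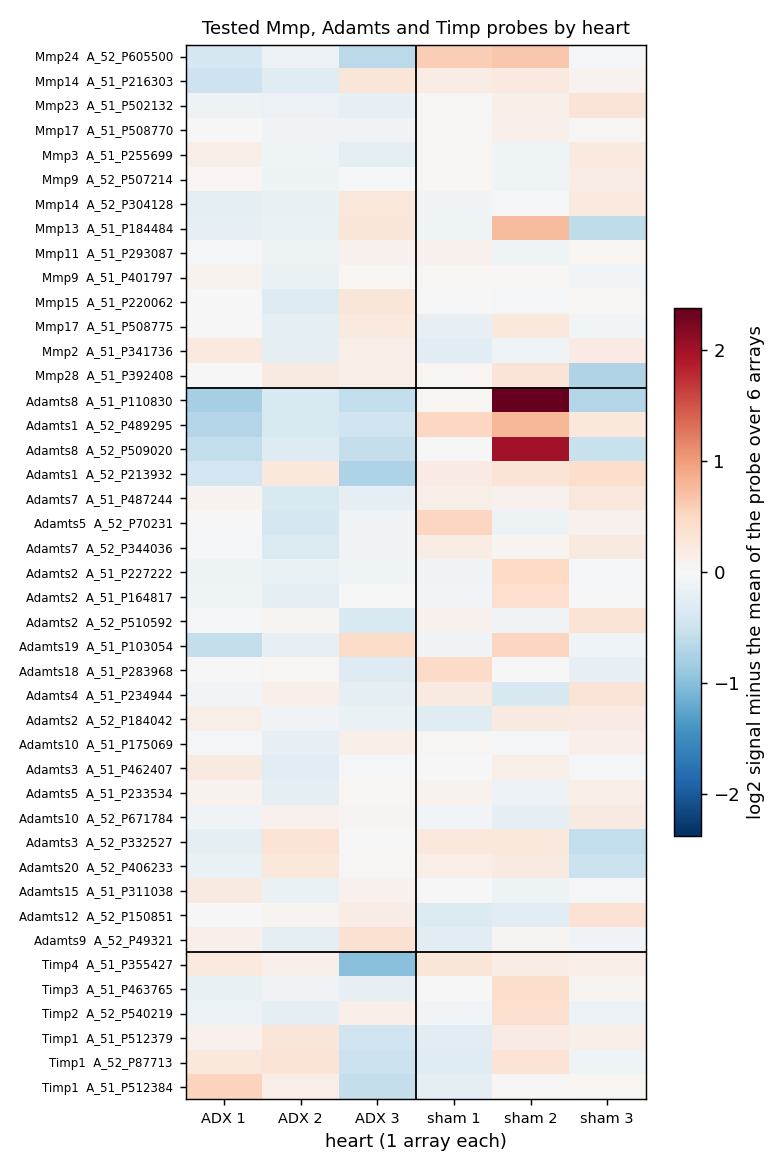
Log2 signal of each tested probe minus its mean over the 6 arrays (colour), for the 3 ADX hearts and then the 3 sham hearts (columns). Blue prevails in the ADX columns for Adamts1, Adamts7, Mmp23 and Mmp24, and the darkest cells are the Adamts8 probes in sham replicate 2.

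Within slide 1, 28 of 43 tested members (65.1%) had a difference below 0, against 43.1% of all tested probes, and the members' median was -0.09. The sign within slide 1 was that over both slides for 31 of 43 members, against 19699 of 23989 tested probes. Both differences use ADX replicate 1 and all sham arrays, so part of this agreement is built in. Adamts1, Adamts8, Mmp24, Mmp23 and Timp3 kept their direction there, and Timp4, Mmp3, both Adamts3 probes, 1 Mmp17, 1 Timp1 and 1 Adamts10 probe were among those that did not.

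**Figure D5:**
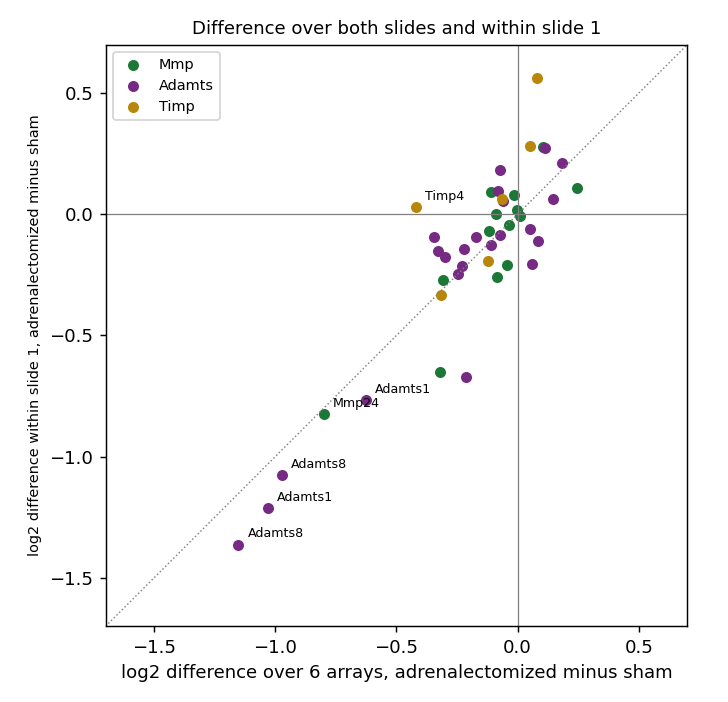
Log2 difference within slide 1, ADX replicate 1 minus 3 sham hearts (y axis), against the difference over all 6 arrays (x axis) for the 43 tested probes, with the dotted line marking equal values. The Adamts1, Adamts8 and Mmp24 probes lie near the line far below 0, and Timp4 lies near 0 within slide 1.

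Companion genes of matrix breakdown were read from the same fit, each by its brightest tested probe, and 0 were called in any of the 5 lists. Of 22 tested matrix substrates, 15 had a difference below 0, with a median of -0.11, and 3 were lower at an unadjusted p under 0.05. Of all tested probes 44.9% had a difference below 0, and 7.4% were lower and 6.1% higher at that p. Collagen Col3a1 read 4.13, 4.33 and 4.23 in ADX hearts, against 4.41, 4.69 and 4.60 in sham hearts, and differed by -0.34 (SE 0.12, limma adjusted p = 0.307). The proteoglycan decorin (Dcn) read 6.98, 6.74 and 6.98 in ADX hearts, against 7.26, 7.37 and 7.03 in sham hearts, and differed by -0.32 (SE 0.13, adjusted p = 0.365). Neither overlapped between groups. Versican (Vcan), a substrate of Adamts1, differed by -0.35 (SE 0.24, adjusted p = 0.56), and aggrecan (Acan) by 0.41 (SE 0.22, adjusted p = 0.455). Versican and aggrecan were chosen for naming after their values were seen.

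Of 18 tested regulators of proteolysis, 1 was higher and 4 were lower in ADX hearts at an unadjusted p under 0.05. The shares of all tested probes were 6.1% higher and 7.4% lower. Plau, 1 of the lower genes, was well above background in 1 of 3 ADX hearts and 3 of 3 sham hearts. The higher gene was the membrane serine protease hepsin (Hpn), at 0.77 (SE 0.15, limma adjusted p = 0.166), fitted without ADX replicate 1, whose spot was flagged as an outlier. Among the lower genes was the proprotein convertase Pcsk5, at -0.54 (SE 0.16, adjusted p = 0.251), with groups that did not overlap. Some ADAM enzymes cut proteins off the cell surface. Of 8 tested ADAM genes, 6 had a difference below 0 and 1 was lower at an unadjusted p under 0.05. That gene was Adam10, which read -4.43, -3.61 and -4.00 in ADX hearts, against -2.99, -1.03 and -3.38 in sham hearts, with sham replicate 2 far above the rest as for Adamts8. It was well above background in 2 of 3 ADX hearts and 3 of 3 sham hearts. Like Plau, it entered the test only through sham hearts, where it was higher. Adam10 differed by -1.55 (SE 0.58, adjusted p = 0.324) and Adam8 by 1.16 (SE 0.57, adjusted p = 0.427). Of the Adamts-like genes, which lack the protease domain, Adamtsl4 differed by -0.33 (adjusted p = 0.482) and Adamtsl2 by -0.27 (adjusted p = 0.548). Of the cathepsins, proteases mainly of lysosomes, Ctsb differed by 0.22 (adjusted p = 0.408) and Ctss by 0.21 (adjusted p = 0.55), and the median of the 10 cathepsins was 0.04.

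In whole heart a lower signal can come from fewer cells of a type or from less RNA per cell, which cannot be told apart here. Sums of linear signal, in units of the array's 75th percentile, were taken over lists of marker genes. Of all tested probes 44.9% had a difference below 0. The 9 cardiomyocyte markers were well above background on all 6 arrays, with sums of 3440 to 3859 in ADX and 3744 to 4321 in sham hearts, and 7 of 9 had a difference below 0 (median -0.16). The 9 fibroblast markers, which include Col3a1 and Dcn, all had a difference below 0, with a median of -0.24. Lum and Dpt were close to 0, at -0.004 and -0.008. The sums were 537.2 to 611.5 in ADX and 611.4 to 769.2 in sham hearts, and Gsn had by far the highest signal in them. Fibroblasts are a known source of many Mmp, Adamts and Timp members, and the part of these marker differences in the members' lower values was not tested.

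The 7 endothelial markers summed to 75.2 to 91.6 in ADX and 86.4 to 92.7 in sham hearts, with 5 of 7 below 0 (median -0.15). The 7 smooth muscle markers summed to 111.4 to 131.2 in ADX and 110.1 to 181.8 in sham hearts, with 5 of 7 below 0 (median -0.25). The highest of these sums, 181.8, was that of sham replicate 2. The 10 macrophage markers summed to 114.9 to 135.6 in ADX and 108.2 to 129.5 in sham hearts, sums in which Lyz2 had by far the highest signal, and 8 of 10 were below 0 (median -0.10). Of 10 neutrophil markers on the array 4 were tested, with sums over the list of 1.06 to 4.69 in ADX and 1.13 to 1.81 in sham hearts, and Elane was above background on no array. The tested neutrophil markers had a median difference of -0.11. The highest sum came mostly from the untested Ltf, named after its values were seen, which read -4.68, 1.73 and -0.10 in ADX hearts, against -5.98, -4.66 and -5.48 in sham hearts. All 7 tested adipocyte markers had a difference above 0, with a median of 1.39 and sums of 393.0 to 712.5 in ADX and 323.9 to 436.8 in sham hearts. Brown fat Ucp1 read 4.20, 6.42 and 6.16 in ADX hearts, against 1.11, 3.21 and 3.82 in sham hearts. The 9 mesothelial and epithelial markers summed to 15.0 to 19.9 in ADX and 14.6 to 17.1 in sham hearts. Of the 8 tested, 2 were below 0 (median 0.06). The 9 lymphocyte markers summed to 1.94 to 4.53 in ADX and 1.49 to 2.30 in sham hearts. Of the 7 tested, 1 was below 0 (median 0.45). At an unadjusted p under 0.05, 2 were higher, against 6.1% of all tested probes. How far fat or other tissue taken with the heart bears on the members was not tested.

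Upstream sequences were searched because the operation removes the source of glucocorticoids, whose receptor binds DNA. RefSeq promoters (GRCm38.p6), cut to the 250 bases before the annotated start, were found for 28 member genes, and the first listed promoter of each gene was counted. Each motif was searched on both strands. The full glucocorticoid response element (GNACA, then any 3 bases, then TGTNC) was in 0 of the 28, against 0.381% of 27025 promoters, and its core AGAACA, which can be part of the full element, was in 3 (Mmp10, Mmp11 and Mmp23), against 16.2%. The AP-1 letters TGANTCA were in 6, namely Mmp1a, Mmp3, Mmp7, Mmp10, Mmp13 and Mmp20, against 6.87% of all promoters, and all of these belong to the group on chromosome 9. The GC box GGGCGG was in 15 (32.9% of all promoters), the TATA letters TATAAA in 8 (13.0%), and the cyclic AMP element TGACGTCA and the E-box CACGTG in 0 (1.62% and 6.05%). Mmp7, Mmp12 and Mmp23 have another listed promoter outside these counts, which holds an AP-1 run at -44 for Mmp12, AGAACA at -232 and -193 and an E-box at -50 for Mmp7, and AGAACA at -132 for Mmp23. A match is a run of letters and not a measured binding site.

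The Adamts1 promoter is shown as that of the member with the lowest p, and the 100 bases before the start of Mmp3 and Mmp13 as those of the tested genes of the chromosome 9 group. Capitals mark the motifs found.
Adamts1, chr16:85803114-85803363, minus strand, GRCm38.p6: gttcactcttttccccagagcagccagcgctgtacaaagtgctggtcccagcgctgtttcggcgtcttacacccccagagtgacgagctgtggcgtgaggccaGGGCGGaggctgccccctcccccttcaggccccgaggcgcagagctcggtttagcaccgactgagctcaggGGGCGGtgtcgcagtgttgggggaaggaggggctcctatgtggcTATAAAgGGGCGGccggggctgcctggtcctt
Mmp13, chr9:7272414-7272513, plus strand, GRCm38.p6: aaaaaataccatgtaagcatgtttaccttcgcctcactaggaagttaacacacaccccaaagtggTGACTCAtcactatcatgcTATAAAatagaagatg
Mmp3, chr9:7445722-7445821, plus strand, GRCm38.p6: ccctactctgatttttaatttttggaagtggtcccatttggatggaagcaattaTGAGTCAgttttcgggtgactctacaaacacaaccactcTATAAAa
The Adamts1 window holds GC boxes that begin at -147, -76 and -25 and a TATA run that begins at -32 relative to the start. The Mmp13 window holds an AP-1 run at -35 and a TATA run at -16, and the Mmp3 window an AP-1 run at -46 and a TATA run at -7. The array signals of Mmp3 and Mmp13, which share both motifs, differed between ADX and sham hearts by less than 1 SE.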

How the data were processed

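Whole-heart RNA was amplified, labelled with Cy3 and hybridised to 1-colour arrays of 60-base probes, per the labels' protocols. The deposited intensity of each spot is the processed signal of Feature Extraction 9.5.3.1 (protocol GE1-v5_95_Feb07), background-subtracted and detrended within its array but not normalized between arrays, per the file headers. The submitters' processing notes name version 9.5. Dim spots carry a surrogate value, 15.3% to 19% of spots on ADX arrays and 19.4% to 22% on sham arrays. In the deposited value table the intensity equalled that of the scanner file for all 45018 spots of each array within a tolerance of 1e-04, so it is linear and not centred.

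Signals of noncontrol spots were set on the log2 scale relative to their array's 75th percentile, outlier-flagged spots (80 to 133 per array) were dropped, and spots of a probe were averaged. Groups came from the labels. Differences were fitted per probe with limma 3.58.1 in R 4.3.3 (lmFit and eBayes, no covariates) on all 6 arrays, with Benjamini-Hochberg adjustment over the 23989 tested probes at 0.05. Precision is limited by having 3 arrays a group, and the median SE over tested probes was 0.15. No member probe was saturated or lost an array. The fit was tested on simulated data with independent noise and no slide effect, so that test does not bear on the slide layout.

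Members, lists and rules were chosen with earlier results of these data known. Values in every heart are given for the Timp genes, for tested probes with an unadjusted p under 0.05 or separate groups, for at least the 6 lowest p of the Mmp and of the Adamts class, and for genes whose probes disagree in sign. The Adamts8 probe A_51_P110830, Mmp2 and the untested Adamts16 and Mmp16 probes were added after their values were seen. In each companion list the 2 genes of lowest p are given. The fit of the report did not pair hearts by replicate number. Correlations of deviations were 0.14, 0.14 and -0.20 between same-numbered hearts, and ran from -0.32 to 0.21 between differently numbered ones. With 3 hearts a group they cannot settle whether the numbers pair the hearts. Alternatives covered the background correction, the scaling, the filter, several probes of a gene, the slide, the replicate number, the variance model, array weights and each array left out. Python 3.11.15 with numpy 2.4.6, pandas 2.3.3 and matplotlib 3.10.9 searched sequences and drew figures.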

Additional observations from a re-analysis of the deposited data

How the results depend on the processing

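Among single named probes, Adamts1, Adamts5 (A_52_P70231), Adamts7, Adamts8, Mmp14 (A_51_P216303), Mmp23, Mmp24 and the Mmp17 probe A_51_P508770 kept their direction under every alternative run, and no other setting than normexp or array weights called a member. With normexp correction 1597 probes were called higher and 8102 lower, with 24 members called, 26 members lower at an unadjusted p under 0.05 and 20 companion genes called. Array weights gave 64 higher, 103 lower and 1 member. Called probes higher and lower were 1 and 3 with quantile normalization, 2 and 3 with median centring, 5 and 2 with the brightest probe per gene, 8 and 7 with a variance trend and robust estimation, and 50 and 2 in slide 1 alone, 2 were higher with slide as a fixed block, 2 were lower with a gene's probes averaged, and 0 were lower when testing was limited to probes detected on all 6 arrays. Members at an unadjusted p under 0.05 were 2 lower with no filter and 3 lower with slide as a fixed block. Slide 1 alone holds 1 ADX heart, and its count of members at that p is not read here. With the replicate block 0 probes were called lower, 3 members were lower at an unadjusted p under 0.05, and no other call changed. Over all tested probes, in either direction, 3238 of 23989 had such a p in the setting of the report. That count was 3429 of 41174 with no filter, 2923 of 23989 with slide as a fixed block and 2842 of 23989 with the replicate block. With normexp correction it was 12406 of 23989. Leaving out 1 array at a time gave 0 to 53 probes called higher, 1 to 6 called lower, 0 to 1 members higher and 2 to 4 lower at an unadjusted p under 0.05, and 53 higher without ADX replicate 1.

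These differences changed sign. None was called over all 6 arrays in the setting of the report, and with normexp Mmp28, Mmp17 (A_51_P508775), Adamts3 (A_52_P332527) and Adamts10 (A_52_P671784) were called lower in ADX hearts, with limma adjusted p-values of 0.0205, 0.0217, 0.0205 and 0.0242. With normexp they were 0.049 for Adamts2 (A_51_P227222), 0.0091 for Mmp3, -0.98 for Mmp28, 0.023 for Timp3, 0.21 for Timp2, -0.63 for Mmp17 (A_51_P508775), -0.51 for Timp1 (A_51_P512384), -1.05 for Adamts3 (A_52_P332527) and -0.75 for Adamts10 (A_52_P671784). With slide as a fixed block and in slide 1 alone they were 0.093 for Mmp3, 0.031 for Timp4, 0.18 and -0.21 for Adamts3 (A_51_P462407 and A_52_P332527), -0.0052 for Mmp17 (A_51_P508775), 0.062 for Timp1 (A_51_P512379) and -0.059 for Adamts10 (A_52_P671784). The brightest probe of a gene can be another than the probe named, and then the sign differs between probes and not between settings. Its difference was -0.12 for Mmp17 (A_51_P508770), 0.049 for Timp1 (A_52_P87713), -0.072 for Adamts3 (A_51_P462407) and -0.074 for Adamts10 (A_51_P175069). With the mean of a gene's probes, Mmp17 was -0.055, Timp1 0.021, Adamts3 -0.0068 and Adamts10 -0.012. Mmp17 (A_51_P508775) was -0.026 with median centring and -0.0033 with the percentile over detected probes. Adamts3 (A_52_P332527) was -0.011 with quantile normalization and -0.076 with array weights, which gave 0.14 for Timp1 (A_51_P512379). With 1 array left out, the ranges were -0.16 to 0.0084 for Adamts10 (A_51_P175069) and -0.051 to 0.17 for A_52_P671784, -0.20 to 0.047 for Adamts3 (A_51_P462407) and -0.22 to 0.20 for A_52_P332527, -0.11 to 0.13 for Mmp17 (A_51_P508775), -0.053 to 0.46 for Mmp28, -0.24 to 0.042 for Timp2, and -0.23 to 0.16, -0.16 to 0.38 and -0.10 to 0.31 for Timp1 (A_51_P512379, A_51_P512384 and A_52_P87713). Apart from those that come from using another probe or the mean of probes, the cause of these changes was not tested. The Mmp24 probe, whose signal lay near background, was not among those that changed sign. The widest SE among tested members were those of the Adamts8 probes.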
